A study of Mus musculus with 4 samples.

Results

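Cell adhesion molecules, fibronectin and vimentin were followed in mouse embryonic stem (ES) cells with different numbers of intact BAF250 copies. BAF250 is a subunit with an ARID domain found in BAF, a chromatin remodelling complex of the SWI/SNF family. The genes were Cdh1, Epcam, Bcam, Cdh2, Fn1, Itga5, Itgb1, Itga6, Itgav and Vim, taken as all probe sets that carry these symbols in the platform's annotation, whatever their values. They comprised 10 of 18193 named genes and 28 of 45101 probe sets. The list was selected on the log2 differences between homozygous and wild type cells, which were known when it was proposed, so those differences are described for the members and not tested as evidence.

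The arrays came from 2 lines homozygous for the BAF250 knock-out, named ko1 and ko2 and called lines here, 1 line heterozygous for it and 1 wild type line. Each was 1 culture on 1 Affymetrix array. The sources used here do not say how the knock-out allele was made, whether each line is a single clone, or whether ko1 and ko2 are independent. All cultures were kept without feeder cells on gelatin, in serum and leukaemia inhibitory factor. Signals below are the deposited MAS5 values on a linear scale. A log2 difference is that of log2(signal + 0.675) after each array was centred on its median, with its standard error (SE) from limma. The only replicate spread is that between ko1 and ko2.

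Cdh1 encodes E-cadherin, the calcium-dependent molecule by which ES cells hold to each other, and its tail binds catenins that link to actin. Fibronectin, the product of Fn1, is a secreted matrix glycoprotein bound at the cell surface mainly by the integrin of the Itga5 and Itgb1 chains and by integrins with the Itgav chain. The Itga6 chain, paired with Itgb1, and Bcam bind laminins of the basement membrane instead. A fall of E-cadherin with a gain of vimentin is a textbook trait of epithelial-to-mesenchymal change, and the migratory parietal endoderm of the mouse embryo carries vimentin. Per the RefSeq table of assembly GRCm38.p6, Itga6, Itgav and Vim lie on chromosome 2, Cdh1 and Itgb1 on chromosome 8, Fn1 on 1, Bcam on 7, Itga5 on 15, Epcam on 17 and Cdh2 on 18.

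Arid1a, which encodes BAF250a, had a signal of 7.03 and 3.57 in ko1 and ko2, 50.4 in heterozygous and 109 in wild type cells on its brighter probe set. On the other probe set the homozygous lines parted, with 17.3, above background, for ko1 and 1.06 for ko2, beside 24.1 for heterozygous and 42.9 for wild type. There ko1 stood -0.77 from wild type on the log2 scale and 3.30 above ko2. The sources do not place either probe set relative to the altered part of the gene. The labels give BAF250 no letter, and the Arid1b probe set was below background on every array. Background was set on each array at its brightest unspiked bacterial control, between 3.82 and 7.57. The 8 ES cell markers examined were above it on all 4 arrays. The wild type array was the brightest, with a median signal of 4.01 against 2.61 to 2.74 on the other arrays. The ratio of 3' to 5' actin control signals was 5.01 for ko1, 2.61 for ko2, 2.86 for heterozygous and 1.3 for wild type. That of the Gapdh controls was 2.57 for ko1, 1.21 for ko2, 1.27 for heterozygous and 1.1 for wild type.

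On their brightest probe sets Cdh1, Epcam and Bcam had lower signals in both homozygous lines than in the heterozygous and wild type lines. None of these differences was called by limma against wild type or heterozygous, and the second Epcam probe set did not show it. Cdh1 read 9.44 and 8.35 in the homozygous lines, 22.8 in heterozygous and 33.4 in wild type. The homozygous arrays lay below both others, and heterozygous and wild type were nearly level once the arrays were centred (0.03 ± 0.68). Homozygous cells stood 2.44-fold below wild type (log2 difference -1.29 ± 0.59 SE) and 2.50-fold below heterozygous (-1.32 ± 0.59). The lines differed little from each other, at -1.24 in ko1 and -1.33 in ko2 against wild type.

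**Figure D1:**
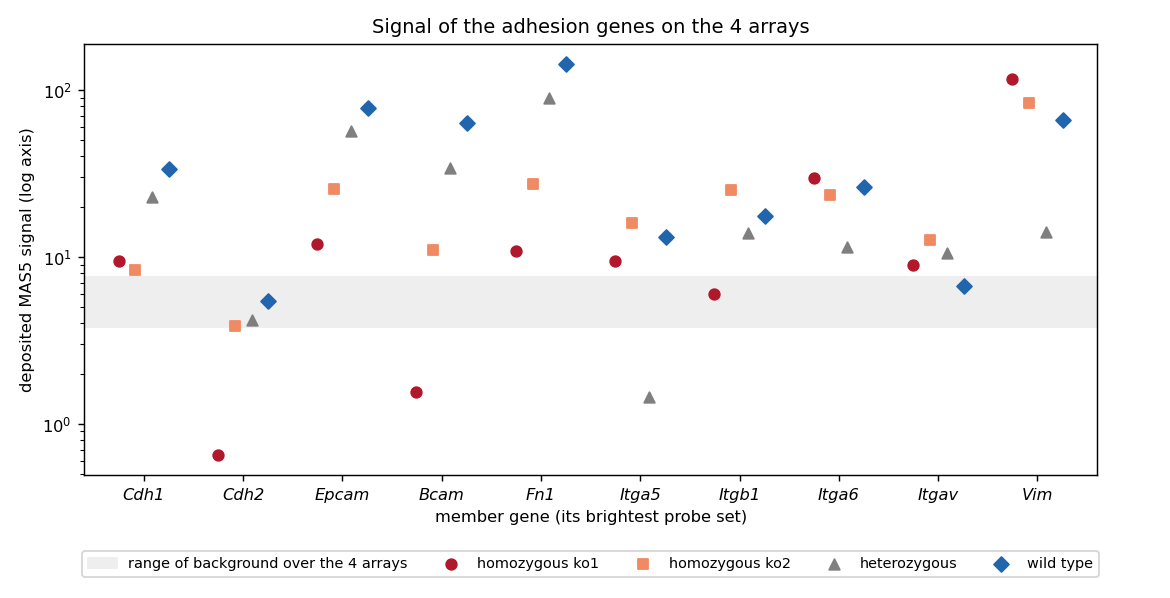
Deposited MAS5 signal (vertical log axis) of the brightest probe set of each member gene on the 4 arrays, 1 point an array, with the range of background shaded. Cdh1, Epcam, Bcam and Fn1 are lower in ko1 and ko2 than in heterozygous and wild type, whereas Vim is lowest in heterozygous at 14.0.

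Epcam encodes a calcium-independent adhesion protein of epithelia that is abundant on ES cells. Its brightest probe set read 11.9 in ko1 and 25.5 in ko2, against 56.8 in heterozygous and 77.7 in wild type. The groups did not overlap, and ko1 was lower than ko2. The log2 difference was -1.56 ± 0.54 to wild type, or 2.96-fold, and -1.69 ± 0.54 to heterozygous. The second Epcam probe set, of the class (_x_at) whose probes can match other sequences, had another order. It read 46.2 and 25.5 in the homozygous lines, 7.40 in heterozygous and 54.5 in wild type, so that heterozygous alone was low. On it homozygous minus wild type was -0.11 ± 0.53 and homozygous minus heterozygous was 2.09 ± 0.53.

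The Epcam promoter is shown because CAGGTG, the E-box bound by repressors of the Snail and Zeb families, occurs in it at 2 places. RefSeq promoter entries of assembly GRCm38.p6 were used for 6 members: Bcam, Epcam, Itga5, Itgav, Itgb1 and Vim. Cdh1, Fn1 and Itga6 had no entry, and Cdh2 was left out of the search, so none of their promoters was examined. The window printed is the 250 bases before the gene's start, on its own strand, with CAGGTG or its reverse complement CACCTG in capitals. It is chr17:87635729-87635978 on the + strand.
Epcam: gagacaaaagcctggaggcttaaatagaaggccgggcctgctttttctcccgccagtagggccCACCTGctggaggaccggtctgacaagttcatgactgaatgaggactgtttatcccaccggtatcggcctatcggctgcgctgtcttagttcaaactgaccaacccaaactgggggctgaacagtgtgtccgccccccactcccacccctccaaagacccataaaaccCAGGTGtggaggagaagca
The matches begin at positions -187 and -19 relative to the start. Of 32851 promoter windows of this length, 17.2% held the motif on either strand and 2.06% held it at least 2 times. The other 5 member windows searched did not hold these letters. A match describes the letters only. Snai1, which encodes the repressor Snail, read 13.3 and 11.6 in the homozygous lines, 4.43 in heterozygous and 2.19 in wild type, the last 2 values below background. That puts it at least 2.32-fold above wild type, without a call (fitted 2.74 ± 0.88, limma adjusted p = 0.357). The Zeb family genes were near background and not called, with Zeb1 at 0.65 ± 1.06 and Zeb2 at -0.09 ± 0.81.

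Bcam is the Lutheran laminin receptor of the immunoglobulin family. Its 1 probe set read 1.56 in ko1, below background, and 11 in ko2, against 34.2 in heterozygous and 63.5 in wild type. Both homozygous arrays were below the others but far apart from each other, by 2.46 on the log2 scale. With ko1 set at its background, homozygous cells were at least 5.16-fold below wild type and at least 4.16-fold below heterozygous. The fitted log2 differences were -3.11 ± 0.76 and -2.80 ± 0.76.

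Cdh2 encodes N-cadherin, the cadherin that often replaces E-cadherin in mesenchymal cells. On its brighter probe set ko1 had 0.646 and ko2 3.87, heterozygous 4.16 and wild type 5.47. Only the ko2 value reached its array's background, and then barely. The other probe set was too dim to be tested, at 5.30 and 0.507 in the homozygous lines, 0.136 in heterozygous and 0.530 in wild type. The probe sets placed the homozygous lines in opposite orders, and all 8 values of Cdh2 were at or near background, so a difference was not detectable at this signal level.

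Fn1 was lower in the homozygous lines, unlike the basement membrane genes called higher, which are described further on. Its brighter probe set read 10.9 in ko1 and 27.3 in ko2, against 89.9 in heterozygous and 144 in wild type. All 4 values were above background, and the groups did not overlap. Homozygous cells stood 5.51-fold below wild type (log2 difference -2.46 ± 0.54) and 5.11-fold below heterozygous (-2.35 ± 0.54). The difference to wild type was -3.14 in ko1 and -1.79 in ko2, so its size differed between the lines while its direction did not. Heterozygous minus wild type was -0.11 ± 0.62. The other Fn1 probe set was at 0.532 and 1.09 in the homozygous lines, 0.423 in heterozygous and 7.51 in wild type, below background on all 4 arrays. Over the 4 centred arrays the genes with a profile most like that of Fn1 were Tac4, 4930488B22Rik and Eef1akmt2, at Euclidean distances of 0.0989, 0.113 and 0.224 in log2 units. They were dim, with mean signals between 4.72 and 6.52, and both homozygous values of each were below background.

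The brightest probe sets of the 4 integrin chains stood between 0.07 and 1.16 for homozygous minus wild type, beside -2.46 for Fn1. Itga5, the alpha chain of the classical fibronectin receptor, read 9.45 and 15.9 in the homozygous lines, 1.45 in heterozygous and 13.2 in wild type on its brightest probe set. Wild type lay between the homozygous lines in deposited signal, and heterozygous was below background. Homozygous minus wild type was 0.45 ± 0.81, a direction that turned (-0.09) with the signals as deposited, and homozygous minus heterozygous was 2.59 ± 0.81, at least 1.68-fold with heterozygous at background. The next Itga5 probe set repeated this order of heterozygous far below the rest, with 10.7 and 8.03 in the homozygous lines, 1.11 in heterozygous and 13.0 in wild type. The remaining probe sets did the opposite and were highest in heterozygous, at 8.26 and 4.66, against 0.267 to 5.23 in the homozygous lines and 0.467 and 1.54 in wild type. The dimmest of these was below background on all 4 arrays, and the other was below it in ko1 and wild type. The brighter Itga5 probe sets thus both had heterozygous lowest, which the dimmer ones, near background, did not repeat.

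Itgb1 is the beta chain shared by the main fibronectin and laminin receptors. Its brightest probe set read 5.98 for ko1, 25.1 for ko2, 13.9 for heterozygous and 17.5 for wild type. The homozygous lines enclosed the other arrays, and homozygous minus wild type was 0.07 ± 0.73 (-0.47 with the signals as deposited). A second probe set, above background on all 4 arrays, read 14.4 and 22.0 in the homozygous lines, 11.8 in heterozygous and 11.8 in wild type (1.12 ± 0.62). The 4 dimmer probe sets had homozygous minus wild type differences between -0.69 and 2.03, each with an SE above 1.

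Itga6, the laminin-binding alpha chain typical of ES cells, was above background on all arrays on its brighter probe set. This read 29.6 and 23.6 in the homozygous lines, 11.4 in heterozygous and 26.4 in wild type. The other read 18.9 and 21.0 in the homozygous lines, 5.12, below background, in heterozygous and 23.6 in wild type. Homozygous and wild type cells were close on them, at 0.55 ± 0.54 and 0.31 ± 0.60, which became 0.00 and -0.23 with the signals as deposited. Heterozygous was the lowest array on both, with homozygous minus heterozygous at 1.14 ± 0.54 on the brighter probe set and at least 2.67-fold on the other.

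Itgav, the alpha chain of the vitronectin and fibronectin receptors, read 8.89 and 12.6 in the homozygous lines, 10.5 in heterozygous and 6.66 in wild type on its brightest probe set. Wild type was below its background there, and homozygous minus wild type was 1.16 ± 0.73. A second probe set read 12.3 in ko1 but 3.55, below background, in ko2; heterozygous had 0.628 and wild type 12.4 (-0.27 ± 1.06). Its other 3 probe sets ranged between 0.228 and 6.77 and were below background on all 4 arrays.

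**Figure D2:**
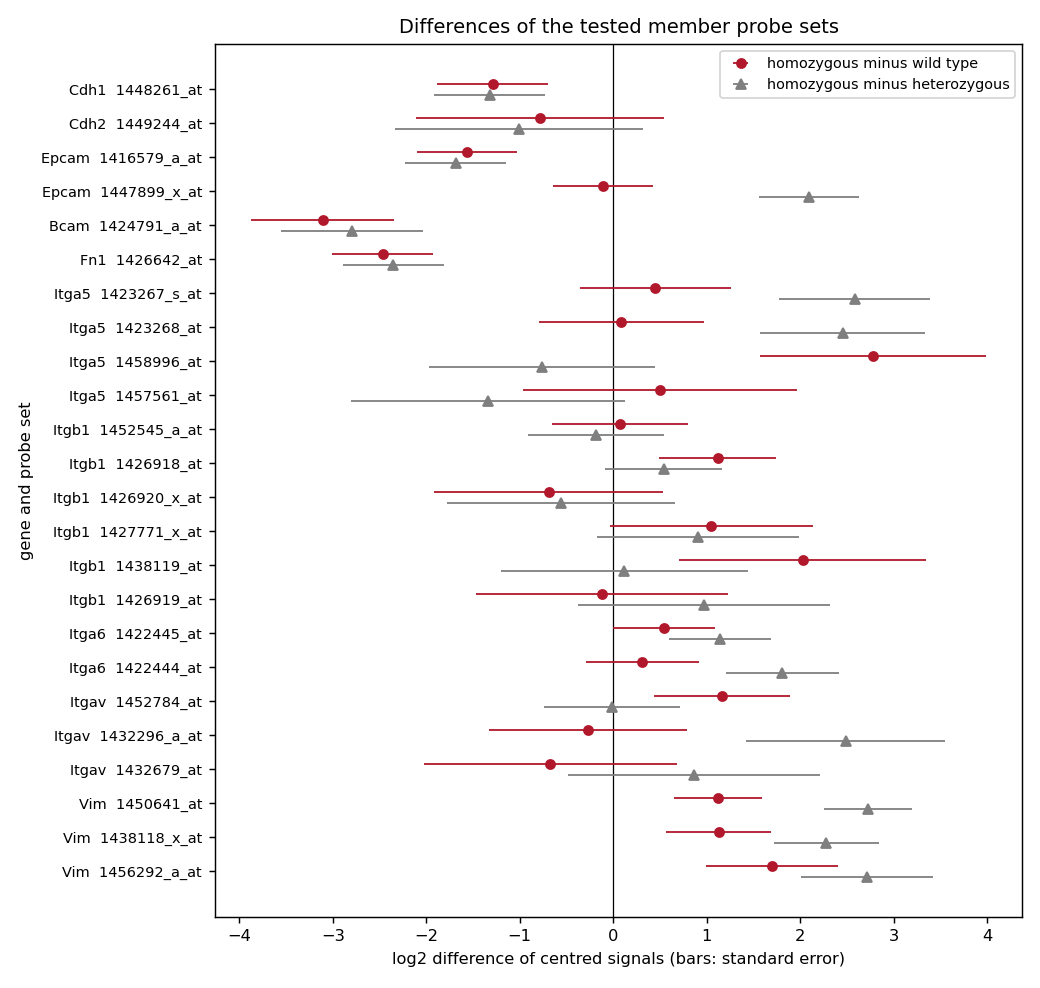
Log2 difference (horizontal axis, bars 1 standard error) of homozygous minus wild type (circles) and homozygous minus heterozygous (triangles) for the 24 member probe sets tested. Cdh1, Bcam, Fn1 and the first Epcam probe set lie left of 0 in both differences, the 3 Vim probe sets lie right of 0 in both, and several integrin probe sets part because heterozygous was low.

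Vim encodes vimentin, the intermediate filament protein of mesenchymal cells. Its brightest probe set had signals of 116 and 83.4 in the homozygous lines, 14.0 in heterozygous and 65.8 in wild type. The next had 49.1 and 26.4 in the homozygous lines, 6.76 in heterozygous and 23.8 in wild type. The third had 29.8 and 15.4 in the homozygous lines, 2.65 in heterozygous and 9.29 in wild type. On all 3 probe sets both homozygous arrays were above wild type and heterozygous was lowest. Homozygous minus wild type was 1.12 ± 0.47, 1.13 ± 0.56 and 1.70 ± 0.71, and homozygous minus heterozygous was 2.73 ± 0.47, 2.28 ± 0.56 and 2.71 ± 0.71. Heterozygous was below background on the last 2 of these probe sets, which puts their differences at no less than 4.75-fold and 2.87-fold. The larger difference was therefore the one to heterozygous, which was itself 1.61 ± 0.55 below wild type on the brightest probe set.

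The Vim promoter is shown beside that of Epcam. Against wild type, the homozygous lines were higher for Vim and lower for the brighter Epcam probe set, both without a call. The second Epcam probe set was nearly level there (-0.11 ± 0.53). The Vim window is chr2:13574061-13574310 on the + strand, with the TATA box letters TATAAA in capitals.
Vim: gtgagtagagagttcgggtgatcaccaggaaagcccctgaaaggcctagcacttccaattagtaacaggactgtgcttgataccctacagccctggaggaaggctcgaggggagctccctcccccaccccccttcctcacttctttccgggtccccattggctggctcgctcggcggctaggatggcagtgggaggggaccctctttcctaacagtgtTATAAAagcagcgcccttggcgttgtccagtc
TATAAA begins at position -32 and was found on either strand in 12.4% of the 32851 windows. No other member window searched held it. The guanine and cytosine content was 58.4% in the Vim window and 56.4% in that of Epcam.

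Across the members, 24 of 28 probe sets passed the filter on mean signal and were tested, and 8 were above background on all 4 arrays. Homozygous against wild type, 1 of the 24 was called lower, the brighter Fn1 probe set, and 0 higher, beside 0.0851% called lower and 0.377% called higher of the 27022 probe sets tested (23 and 102 probe sets; 54 and 57 with signals as deposited). The Fn1 call was made under 3 of the 8 alternatives that give a test, and Bcam, without a call here, was called under 3. Against heterozygous, 1 member probe set was called higher, the brightest of Vim, and 0 lower, beside 0.352% and 0.0259% of all. The members were chosen with these differences in view, so nothing is read from these counts.

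On centred values both homozygous arrays lay below the other arrays in 4 of the 24 probe sets, beside 21% of all tested probe sets. They lay above them in 8, beside 17.5%. Those below were Cdh1, Bcam, the brighter Fn1 and the brighter Epcam probe sets, and those above were 3 of Vim, 2 of Itga6, 2 of Itgb1 and 1 of Itga5. In deposited signal, wild type exceeded 1 or both homozygous lines on these Itga6 and Itga5 probe sets, so their place depends on the centring. Heterozygous was the lowest array in 11 of the 24, beside 25% of all, and these were probe sets of Vim, Itga6, Itga5, Itgav, Itgb1 and Epcam. None of the members was called between heterozygous and wild type, where limma called 0 of 27022 probe sets (842 had an unadjusted p below 0.05, among them 7 member probe sets). The median of the members' brightest probe sets was -0.35 for homozygous minus wild type, against -0.20 over the 13729 genes tested. It was 0.29 without ko1 and -1.09 without ko2, so its sign rests on ko1, the array with the highest actin ratio. The part of RNA quality in these values was not tested. The directions of Cdh1, Bcam, Vim, the brighter Fn1 probe set and the brighter Epcam probe set were the same in ko1 and ko2.

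The lower signals of the adhesion genes were set beside those of basement membrane genes. Of 18 basement membrane genes tested 6 rose, 0 fell and 12 did not pass, with a median log2 difference of 0.87. On centred values both homozygous arrays lay above the others in 8 of the 18, beside 17.5% of all tested probe sets. They lay below in 2, beside 21%, namely Hspg2 (-0.61 ± 0.47) and Col18a1 (-1.09 ± 0.51), neither called. Over all 13729 genes 0.51% were called higher and 0.102% lower. These rises were already known when the list was fixed. Col4a1, a type IV collagen chain, read 1120 and 663 in the homozygous lines, 11.3 in heterozygous and 10.3 in wild type, a 115-fold rise (6.84 ± 0.49, limma adjusted p = 3.54e-08). Col4a2, the partner chain, rose at least 95.3-fold (limma adjusted p = 2.09e-09). Lama1, a laminin alpha chain and so a ligand for the Itga6 receptor, rose 54-fold (5.75 ± 0.53, limma adjusted p = 1.8e-06), and Sparc, a secreted collagen-binding protein, rose 47.8-fold (5.58 ± 0.63, limma adjusted p = 2.97e-05). Lower Fn1 and higher signals of these genes were seen in both homozygous lines, while heterozygous minus wild type was -0.11 for Fn1, 0.69 for Col4a1 and 0.01 for Sparc. Heterozygous read 0.625 for Lama1, below background, against 11 in wild type.

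**Figure D3:**
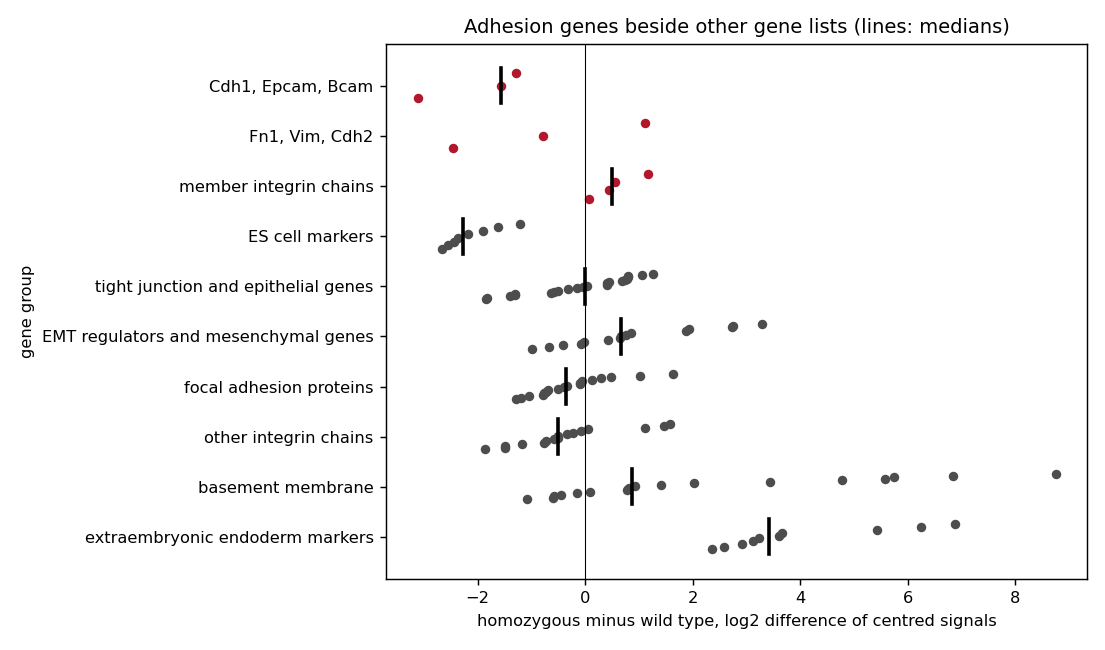
Homozygous minus wild type log2 difference (horizontal axis) for genes of each group, 1 point a gene on its brightest probe set, with black lines at medians. Cdh1, Epcam and Bcam have a median of -1.56 and the member integrin chains of 0.50, beside medians of 0.87 for basement membrane genes and -2.27 for ES cell markers.

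Few other genes of the adhesion system passed the test. Of the other cadherins and the catenins 0 of 14 tested were called, with a median of 0.24. Of the catenins, which tie E-cadherin to actin, Ctnnb1 read 76.5 and 59.4 in the homozygous lines, 73.9 in heterozygous and 86.0 in wild type (0.20 ± 0.47). Ctnna1 stood at -0.01 ± 0.47. Jup (plakoglobin) had 22.8 for ko1, 19.9 for ko2, 20.3 for heterozygous and 56.7 for wild type (-0.84 ± 0.51). Ctnnd1 (p120-catenin) had 2.67, below background, for ko1 and 38.5 for ko2, beside 14.5 for heterozygous and 32.1 for wild type. Pcdh1, a protocadherin, was below background in heterozygous and wild type, which puts it at least 1.24-fold above wild type (fitted 2.83 ± 1.19). Cdh4 was below background in both homozygous lines and in wild type, so no difference between them was measurable. Of the other integrin chains 0 of 16 were called (median -0.51), with Itga7, a laminin-binding chain of muscle, at least 1.17-fold below wild type and Itgb7, a chain of leukocytes, at least 1.17-fold above it. Of the laminin receptors outside the members 0 of 5 were called (median 0.31). These include Itga3 and Itga7, already counted among the other integrin chains. Sgce, a sarcoglycan, read 16.3 in ko1 and 6.83 in ko2, against 6.85 for heterozygous and 1.08 for wild type. The last 2 values were below background, which puts Sgce at least 2-fold above wild type (fitted 3.23 ± 0.95, limma adjusted p = 0.254).

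Focal adhesion proteins, which join integrins to actin, had 0 of 18 called and a median of -0.36. Zyx (zyxin) stood at 1.64 ± 0.57 and Parvb (a parvin) at -1.29 ± 0.67. Tight junction and epithelial genes had 0 of 22 called and a median of 0.00. The largest differences were those of Cldn4, a claudin, at least 2.58-fold, and Tjp3, at least 1.56-fold below wild type. Both were below background in the homozygous lines. On centred values both homozygous arrays lay below the others in 5 of these genes and above them in 5. Among those above were F11r (1.25 ± 0.60), Cldn6 (1.06 ± 0.50) and Cldn7 (0.68 ± 0.58), each above background on every array. In deposited signal Cldn7 read 17.1 in ko1 and 17.7 in wild type. Of the regulators and genes of epithelial-to-mesenchymal change 0 of 15 were called, with a median of 0.67. Twist1, a transcription factor of that change, was just above background in the homozygous lines and below it in heterozygous and wild type, at least 1.14-fold above wild type. Tgfbr1, a TGF-beta receptor, was below background in ko2 (2.22), heterozygous and wild type and just above it in ko1 (5.67), so no fold is given. Unadjusted limma p-values below 0.05 were found for 1758 of all 27022 probe sets in this comparison.

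A few genes at the edge of the adhesion system rose against wild type. Among adhesion molecules of the immunoglobulin and other families 1 of 19 rose and 0 fell. It was Podxl, the anti-adhesive sialomucin podocalyxin, at 95.1 and 34.9 in the homozygous lines, 16.2 in heterozygous and 11.1 in wild type (2.86 ± 0.57, limma adjusted p = 0.0196). Of 13 genes for fibronectin partners and interstitial matrix 1 rose and 0 fell, with a median of -0.55. The gene that rose was Sdc4, the syndecan that acts as a co-receptor for fibronectin, at 112 and 46.7 in the homozygous lines, 14.0 in heterozygous and 17.3 in wild type (2.57 ± 0.54, limma adjusted p = 0.0293). The syndecans Sdc1 and Sdc2 had the opposite direction without a call. Sdc1 was at least 1.74-fold (fitted -2.47 ± 1.22) and Sdc2 at least 1.46-fold (fitted -1.78 ± 1.09) below wild type, both below background in the homozygous lines. Of 10 intermediate filament genes other than Vim 2 rose, Krt18 (3.09 ± 0.47, limma adjusted p = 0.00128) and Krt8 (2.62 ± 0.50, limma adjusted p = 0.0133), the keratins of simple epithelia. The Podxl and Sdc4 calls each ended in 5 of 8 alternatives, that of Krt8 in 4 and that of Krt18 in 1. Against heterozygous, Podxl (1.76 ± 0.57), Sdc4 (2.29 ± 0.54), Krt8 (1.46 ± 0.50) and Krt18 (2.13 ± 0.47) were higher without a call. Lmna, not called against wild type (1.56 ± 0.62), was called higher than heterozygous, at least 5.16-fold with heterozygous at background.

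ES cell and extraembryonic endoderm markers differed in the same homozygous arrays as Cdh1, Bcam and the brighter Fn1 and Epcam probe sets. Against wild type, 3 of 8 ES cell markers fell, 0 rose and 5 did not pass (median -2.27). They were Pou5f1 (-2.67 ± 0.59, limma adjusted p = 0.0401), Utf1 (-2.54 ± 0.47, limma adjusted p = 0.00899) and Esrrb (-2.37 ± 0.53, limma adjusted p = 0.0435). Against heterozygous none of the 8 was called (median -1.57), and heterozygous itself stood at a median of -0.56 to wild type. The summed signal of the 8 was 746 in ko1 and 860.8 in ko2, against 1907 in heterozygous and 3187 in wild type. Most of it was Dppa5a, which was not called, at 658 in ko1 and 725 in ko2, against 1540 for heterozygous and 2340 for wild type. Of 10 extraembryonic endoderm markers 7 rose and 0 fell (median 3.42), among them Pth1r, at least 15.8-fold (limma adjusted p = 2.12e-05), Srgn, at least 16.2-fold, Cubn, at least 8.87-fold, and Sox17, at least 7.21-fold. Against heterozygous 5 of the 10 endoderm markers were called higher (median 2.98). The calls of Pou5f1, Esrrb and Sox17 against wild type each ended in 5 of 8 alternatives. In ko1 and ko2 all 10 endoderm markers were above background, beside 28.4% and 39% of all probe sets. In heterozygous and in wild type 2 of 10 were, beside 19.6% and 30%. The summed signal of these 10 markers was 642.5 and 301.9 in the homozygous lines, 29.9 in heterozygous and 35.3 in wild type. In such bulk RNA fewer cells of a type and less RNA per cell cannot be told apart, and the part of these markers in the adhesion values was not tested.

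Fibroblasts make fibronectin and vimentin in quantity, and their markers were examined for that reason. None of 7 fibroblast markers tested was called (median 0.89), with Dcn below background on all arrays but ko1 and Col1a2 at 1.86 ± 0.71. Of 10 on the array, ko1 had 3 above background, ko2 had 5, heterozygous had 0 and wild type had 2. Their summed signal was 38.0 and 59.0 in the homozygous lines, 27.0 in heterozygous and 43.1 in wild type. Trophoblast markers had 0 of 6 called, with Elf5 above background in ko2 alone and Tfap2c in ko1 and wild type alone. Mesoderm and neural markers had 0 of 3, with Mixl1 below background on all 4 arrays and Pax6 above it in heterozygous alone. Summed trophoblast signal was 35.3 and 35.3 in the homozygous lines, 19.9 in heterozygous and 41.9 in wild type.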

How the data were processed

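Total RNA of 4 cultures was labelled with biotin and hybridised to 1 array each. The deposited intensities, 1 per probe set, were made with MAS5 per the submitters' processing notes, which state neither its version nor its scaling target. Symbols were those of the platform annotation (34945 of 45101 probe sets with 1 symbol, 932 with several, 9224 with none or controls), matched by gene ID to RefSeq for 34741.

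log2(signal + 0.675), 0.675 being the 20th percentile of all values, was centred on each array's median over the 27022 probe sets whose mean signal exceeded 2.55 (40th percentile). limma 3.58.1 in R 4.3.3 was fitted with 1 mean per genotype, an intensity trend and Benjamini-Hochberg adjustment over these probe sets, at a threshold of 0.05. The residual degree of freedom is 1 (20.96 in total with the prior), so the single heterozygous and wild type cultures were assumed to vary like the homozygous lines. The labels name ko1 and ko2 without saying whether they are separate clones or cultures of 1, so p-values reflect only the spread between these samples, which may be technical. The number of arrays limits precision. A gene was represented by its brightest probe set. A fold given as at least a value was computed with the dim side at its background. On simulated data of the same size for homozygous minus wild type, 89% of probe sets changed by 4 on the log2 scale and 20% of those changed by 2 were recovered, with 9 false calls.

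Members, lists and tests were chosen with earlier results of these data known. Named from each list were its called genes, or the 4 with the largest difference where more were called, or the 2 with the largest difference where none was. Named outside that rule, after their values were seen, were Ctnnb1, Ctnna1, Ctnnd1, Jup, Sdc1, Sdc2, Snai1, Snai2, Zeb1, Zeb2 and Dppa5a. So were Hspg2, Col18a1, Itga3, Lmna, F11r, Cldn6 and Cldn7. Alternatives changed the pseudocount, scaling, filter, probe sets per gene or grouping, or left out 1 homozygous line.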

Additional observations from a re-analysis of the deposited data

How the results depend on the processing

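The count of probe sets called for homozygous against wild type (125, of them 102 higher and 23 lower) was 68 with a pseudocount divided by 16, 80 with centring on the 75th percentile, 21 without the filter, 50 with 1 probe set a gene in the fit and 230 with wild type and heterozygous as 1 group. The count against heterozygous (102) was 66, 61, 20 and 48 under the same first 4 alternatives. The counts were within 1.5 times under the other scalings and the larger pseudocount, and the count between heterozygous and wild type stayed at 0. The median of the member genes ranged from -1.09 to 0.29 when either homozygous line was left out, values with no test. Leaving out the centring moves every difference to wild type by about the same amount, so member probe sets with small differences turned under 1 or more of 4 scalings: the second Epcam probe set, 3 of Itga5, the brightest of Itgb1 and the second of Itga6, none of them called. The brighter Itga6 probe set was at 0.00 as deposited. As deposited, the median probe set stood at -0.74. The call of Fn1 ended with the smaller pseudocount, quantile normalization, the 75th percentile, no filter and 1 probe set a gene. Pou5f1 and Esrrb lost their calls under the same 5, Sox17 under 5 and Cubn, Utf1 and Krt18 without the filter only; the calls of the 4 basement membrane genes named held under all 8. The causes were not tested. No paired analysis was possible because the heterozygous and wild type groups hold 1 array each. Probe sets near background limit what can be said of Cdh2, Itgav and the dimmer Itgb1 and Itga5 probe sets.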
